A study of Mus musculus with 1078 samples.

Results

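The 122 tumor endothelial cells (TECs) described here were the cells that the authors' annotation calls endothelial on 2 CD31-positive plates. Of these, 79 came from anti-PD1-treated and 43 from control GL261 tumors, out of 201 TECs and 1078 cells in the series, and all of their genes were compared. GL261 is a mouse glioma line that was grown in the brain of syngeneic mice. The paper reports mice of both sexes for the study as a whole, without giving the sex behind these plates. The anti-PD1 mice received an antibody (clone RMP1-14) against the checkpoint receptor PD1 and were killed once the third dose had been given, the control mice received the PBS vehicle and IgG, and neither group carried an engineered allele. Live CD31-positive cells were sorted 1 to a well and sequenced as full-length cDNA by Smart-seq2, with 1 plate for each sort and treatment. TECs of the losartan plate (an angiotensin receptor blocker, without anti-PD1) served as a further set, from which the typical level of each deposited cluster was taken. Because the labels do not tie cells to mice, each treatment counted as 1 sample with no test, and an effect of the plate cannot be told apart from that of the treatment.

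The endothelium of the healthy brain forms the blood-brain barrier: tight junctions seal the cells, vesicle uptake is kept low, and carriers move nutrients, hormones and drugs. Canonical Wnt/beta-catenin signaling from the surrounding tissue keeps this program in place. In glioma, part of the vessels lose it and take on genes of sprouting vessels, such as those of the tip cell that leads a new branch and those of its basement membrane. Endothelial cells also respond to interferons, with MHC class I presentation and interferon-induced GTPases, and bind leukocytes through adhesion molecules and chemokines.

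Levels are given as TP100K, the deposited TPM of a cell rescaled to a sum of 100000. A log2 ratio is that of the 2 group means after adding 1 TP100K, so it understates changes of genes near 0. A gene counted as measured when it was above 0 in at least 20% of cells, taken as the plain average of the shares in anti-PD1 and control TECs, which held for 6302 of 21765 genes. "Higher" or "lower" in a count means at least 2-fold, a rule of size and not a test. Shares of cells carry exact (Clopper-Pearson) 95% intervals, which cover counting error over cells of 1 plate only, and a gene above 0 in no cell could be present in up to 3.80% of anti-PD1 or 6.98% of control TECs.

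The deposited clusters divided the plates almost completely. Of the 79 anti-PD1 TECs, 78 were in cluster 3 (98.7%, interval 93.1 to 99.97%) and 1 was in cluster 7. Of the 43 control TECs, 3 were in cluster 3 (6.98%, 1.46 to 19.1%), 28 in cluster 7 (65.1%, 49.1 to 79%) and 12 in cluster 12 (27.9%, 15.3 to 43.7%). The losartan plate held both kinds, with 29 TECs in cluster 3, 24 in cluster 7 and 4 in cluster 12. The authors' clusters were made from the expression of these same cells, so the shift between clusters is a description of the genes below and not separate evidence of them.

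The label held against the markers of endothelial cells. Egfl7, a secreted endothelial factor, was above 0 in 79 of 79 anti-PD1 and 43 of 43 control TECs, and Pecam1, the gene of CD31, in 73 and 42. Of 16 endothelial markers, a median of 14 was above 0 per cell in either group. Markers of leukocytes and mural cells were sparse: the macrophage list (16 genes) summed to 0 TP100K in the median cell of either group, with a highest cell of 283 TP100K in anti-PD1 and 121 in control TECs, and the pericyte list (13 genes) likewise to 0, with a highest cell of 81.9 and 17.9. The malignant glioma list (12 genes) differed between the groups, with sums of 0, 14.7 and 226 TP100K in the lowest, median and highest anti-PD1 TEC, against 0, 46.7 and 245 in control TECs, and 2 or more of its genes were above 0 in 31.6% and 53.5% of cells. The astrocyte list (9 genes) had medians of 0 and 9.86 TP100K. Leaving out cells with markers of other cell types kept 79 anti-PD1 and 41 control TECs, with 644 genes higher and 398 lower. Leaving out cells with 3 or more markers of another cell type, chosen after seeing the data, kept 72 and 33, with 669 and 438. No recomputed list median counted as changed under either, by the tolerance given with the processing. The part of the glioma or astrocyte list alone was not tested. Genes detected per cell ranged from 1245 to 6961 (median 2999) in anti-PD1 and from 1023 to 6697 (median 3620) in control TECs. The control cells of cluster 12 were shallow, with a median of 1774.5 genes against 4348 in control cells of cluster 7, and results that rest on them are given against cluster 7 as well.

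Across the 6302 measured genes, 660 (10.5%) were at least 2-fold higher and 408 (6.47%) at least 2-fold lower in anti-PD1 than in control TECs, so 61.8% of the genes past 2-fold were higher. Each list count of anti-PD1 over control TECs below is to be read beside these 10.5% and 6.47%, and many lists hold few measured genes. With each cell scaled by the 75th percentile of its values above 0 instead, the median of all genes moved by -0.37 on the log2 scale and only 18.2% were higher (175 higher, 786 lower). Relative to the median of all genes under that scaling, the list medians were 1.54 for brain endothelium, 0.39 for caveolae and uptake, -1.74 for tumor endothelium, -1.25 for tip-cell genes, -1.09 for the IGF system and -0.86 for matrix. They were -0.61 for immediate early, -0.58 for flow, -0.50 for interferon-induced and -0.48 for glucocorticoid-responsive genes. Those of the carrier, Wnt, redox, cholesterol, ribosomal, MHC class I and leukocyte lists are given with the lists. The remaining lists, such as the junction, MHC class II, arterial, venous and metabolic ones, were not recomputed under that scaling. To ask which changes go with the shift between clusters, an expected ratio was computed for each gene from the cluster shares of the anti-PD1 and control plates and the mean levels of cluster 3 and of clusters 7 and 12 on the losartan plate. By this expectation alone, 872 genes (13.8%) would be at least 2-fold higher and 750 (11.9%) at least 2-fold lower. A changed gene was said to follow the shift when its expected ratio had the same sign and was also past 2-fold, and not to follow it when the expected log2 ratio had the other sign or was below 0.5 in size.

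By this rule, most of the largest differences followed the shift, and the moderate ones often did not. The rule asks for an expected 2-fold whatever the observed size. Genes past 4-fold thus meet it with a smaller part of their ratio, and the shares below are not like for like. Median observed and expected log2 ratios were 2.40 and 2.27 for genes at least 4-fold higher, and 1.25 and 0.73 for those 2 to 4-fold higher. On the lower side they were -2.35 and -2.44, and -1.28 and -0.65. Of 75 genes at least 4-fold higher in anti-PD1 TECs, 61 (81.3%) followed it, against 213 of 585 genes (36.4%) that were 2 to 4-fold higher. Of 47 genes at least 4-fold lower, 39 (83%) followed it, against 128 of 361 (35.5%) that were 2 to 4-fold lower. Over all genes past 2-fold, 274 of the 660 higher genes (41.5%) and 167 of the 408 lower genes (40.9%) followed, while 241 and 168 did not, and 132 and 91 of these had an expected ratio of the opposite sign. Counts of list members that follow are to be read beside these 41.5% and 40.9%. Observed and expected ratios had a Pearson r of 0.466 across genes, which are not independent replicates. The share of lower genes that follow was 68.1% under the 75th percentile scaling and 74.8% when mean ln(TP100K + 1) was compared, whereas the share of higher genes was 41.1% and 49.6%.

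**Figure D1:**
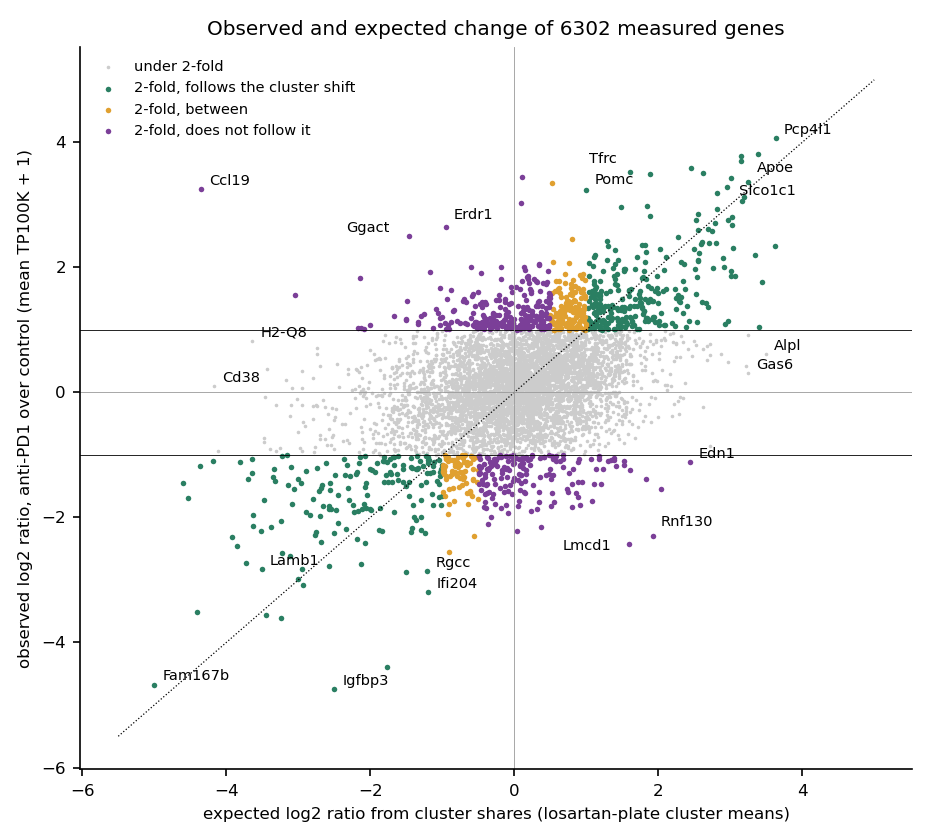
Observed log2 ratio of mean TP100K + 1, anti-PD1 over control TECs (vertical), against the ratio expected from cluster shares with losartan-plate cluster means (horizontal), for 6302 measured genes as points. Horizontal lines mark 2-fold and the dotted diagonal marks equality. Genes past 4-fold lie mostly in the upper right and lower left, while Ccl19 (observed 3.25, expected -4.36) in the upper left lies farthest from the diagonal.

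Genes of brain endothelium led the higher side. Members of this list such as Slco1a4, Slco1c1, Slc16a1, Cldn5, Ocln, Lef1, Cxcl12 and Spock2 are counted again below. They recur in the carrier, junction, Wnt, leukocyte and matrix lists, which are thus not separate from it. All 16 genes of that list were measured, 12 were at least 2-fold higher, none was lower, and their median log2 ratio was 1.95, close to the 1.83 expected from the cluster shares and to 1.98 against control cells of cluster 7 alone (all genes 0.09, 0.07 and 0.12). The measured gene with the highest ratio was Pcp4l1 (chr1:171173262-171196268, minus strand, GRCm38), a small protein of the Pcp4 family. Its level was 0, 82.5 and 271 TP100K in the lowest, median and highest anti-PD1 TEC, against 0, 0 and 123 in control TECs. It was above 0 in 69 of 79 anti-PD1 (87.3%, 78 to 93.8%) and in 4 of 43 control TECs (9.30%, 2.59 to 22.1%), with a log2 ratio of 4.07 and an expected 3.63. Most anti-PD1 cells thus carried Pcp4l1 and most control cells did not, although the ranges overlapped at 0.

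Slco1c1 (chr6:141524368-141570177, plus strand), the carrier of thyroxine across the barrier, averaged 93.2 TP100K in anti-PD1 and 7.79 TP100K in control TECs, with medians of 78.7 and 0 over cells. Its log2 ratio was 3.42, with 3.01 expected. Itm2a (chrX:107397099-107403376, minus strand), an integral membrane protein abundant in brain vessels, averaged 641 TP100K in anti-PD1 and 55.7 in control TECs and was above 0 in 72 and 27 cells. Its ratio of 3.50 was larger than the 1.88 expected. Spock2, a proteoglycan of the brain matrix, was above 0 in 69 anti-PD1 and 14 control TECs (log2 ratio 3.13, expected 3.19). Bsg, the carrier partner also known as CD147, averaged 2042 TP100K in anti-PD1 and 291 TP100K in control TECs, a log2 ratio of 2.81 with 3.02 expected. Pltp, a phospholipid transfer protein, was above 0 in 79 of 79 anti-PD1 and 39 of 43 control TECs and averaged 364 and 50.8 TP100K, a log2 ratio of 2.82. Other genes among the highest were Prom1 (CD133, a membrane protein of cell protrusions; log2 ratio 3.81), Ptn (pleiotrophin, a secreted heparin-binding factor; 3.78), Pllp (a myelin and membrane-raft protein; 3.71) and Car4 (a surface carbonic anhydrase of capillaries; 3.58), each with an expected ratio past 2-fold. St6galnac2, a sialyltransferase (3.51), Grb14, an adaptor of the insulin receptor (3.29), and Sgpp2, a sphingosine phosphatase (3.18), also followed the shift.

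Carriers of the barrier were higher as a group, though less than the cluster shift gave. Of 24 listed solute carriers 21 were measured, 8 were higher (7 of them following the shift), none was lower, and the median log2 ratio was 0.77 with 1.41 expected, or 0.32 above the median of all genes under the 75th percentile scaling. The higher ones included Slc16a1, a carrier of lactate (log2 ratio 1.37), Slc40a1, the iron exporter ferroportin (1.94), Slc6a6, the taurine carrier (1.85), and Slco1a4, a carrier of organic anions (2.2). Slco1a4 averaged 144 TP100K in anti-PD1 and 30.6 TP100K in control TECs, with 3.35 expected. The main glucose carrier did not join them: Slc2a1 averaged 99.7 TP100K in anti-PD1 and 93.1 TP100K in control TECs, a log2 ratio of 0.10 with 1.41 expected, and was above 0 in 72 and 34 cells. Losartan-plate cells of cluster 3 had 267 TP100K of Slc2a1, so the shortfall lay between the cluster 3 cells of these plates. The efflux pumps Abcb1a (P-glycoprotein) and Abcg2 had log2 ratios of 2.17 and 1.64, near the expected 1.70 and 1.59. Per cell, the mean ln(TP100K + 1) of the carriers ranged from 0.10 to 3.53 (median 2.38) in anti-PD1 and from 0.56 to 3.10 (median 1.69) in control TECs, and the ranges overlapped. Among the control cells it had a median of 1.82 in cluster 7 and 0.70 in cluster 12.

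Uptake and caveolar genes went both ways, with the caveolar coat genes and the iron receptor on the higher side. Tfrc (chr16:32608920-32632794, plus strand), the transferrin receptor that ferries iron into the brain, was 0, 4.86 and 160 TP100K in the lowest, median and highest anti-PD1 TEC, against 0, 0 and 7.04 in control TECs. It was above 0 in 43 of 79 (54.4%, 42.8 to 65.7%) and 11 of 43 cells (25.6%, 13.5 to 41.2%), with a log2 ratio of 3.53 and 1.61 expected. The high Tfrc values belonged to a part of the anti-PD1 cells, and no control cell reached their mean of 17.1 TP100K. Cav1 and Cav2, the coat proteins of caveolae, had log2 ratios of 2.2 and 2.37, and their partners Ptrf (cavin 1) and Sdpr (cavin 2) 1.71 and 1.77. Of 18 listed genes 15 were measured, 7 were higher and 2 lower, with a median of 0.63 (expected 0.78) that fell to -0.11 when genes above 0 in at least 10% of cells were kept. The 2 lower genes were Picalm, a clathrin adaptor (log2 ratio -1.44), and Stab1, a scavenger receptor (-1.21). Among tight and adherens junction genes (17 of 20 measured) 3 were higher and none lower: the sealing proteins Cldn5 (1648 TP100K in anti-PD1, 652 in control TECs, log2 ratio 1.34) and Ocln (1.62), and Lsr, which marks corners between cells (1.21). Cldn5 was above 0 in 79 of 79 anti-PD1 TECs and in 32 of 43 control TECs.

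**Figure D2:**
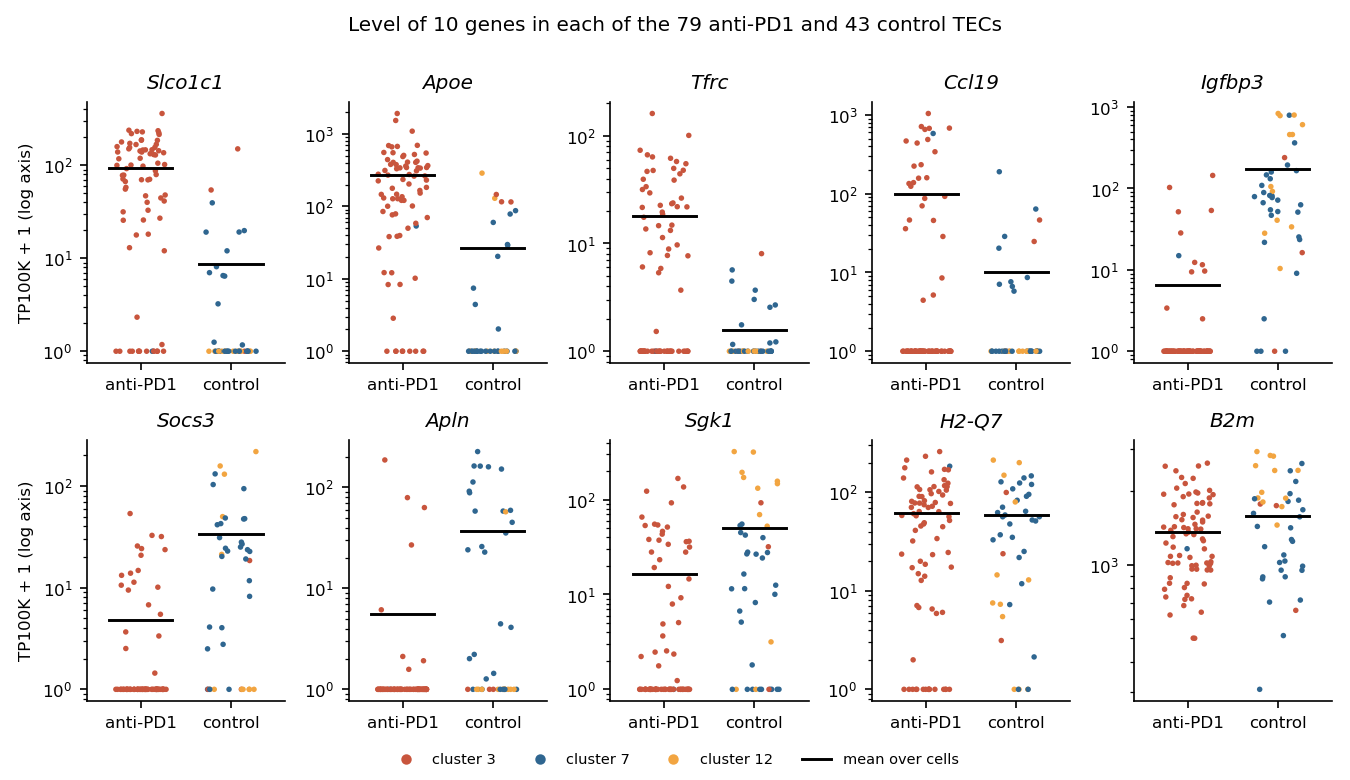
TP100K + 1 on a log axis of 10 genes in each of 79 anti-PD1 and 43 control TECs, coloured by deposited cluster, with a line at the group mean. Slco1c1 and Apoe are above 0 in most anti-PD1 cells and at 0 in most control cells, Tfrc is high in a part of the anti-PD1 cells, Igfbp3, Socs3 and Apln lie at 0 in most anti-PD1 cells, and H2-Q7 and B2m overlap almost fully.

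Targets of canonical Wnt signaling stood with the barrier genes. Of 30 listed pathway genes 23 were measured, 8 were higher (6 following the shift) and 1 was lower, where 10.5% and 6.47% of all genes were. The median log2 ratio was 0.58 (0.52 expected), which is -0.03 under the 75th percentile scaling and 0.25 above the median of all genes there. The higher genes were the transcription factors Lef1 (log2 ratio 1.74), Tcf7 (1.87) and Sox17 (1.53), the target Tnfrsf19 (2.86), the feedback inhibitors Axin2 (1.03), Nkd1 (1.38) and Znrf3 (1.32), and Reck, a part of the receptor complex for Wnt7 (1.63). Lef1 was above 0 in 66 of 79 anti-PD1 (83.5%, 73.5 to 90.9%) and 20 of 43 control TECs (46.5%, 31.2 to 62.3%), with medians of 20.2 and 0 TP100K. The 1 lower gene was Fzd4, a Wnt and norrin receptor, with 0.86 TP100K in anti-PD1 and 4.66 TP100K in control TECs (log2 ratio -1.6), where the cluster shift gave 0.52. Control cells of cluster 12 had 12.3 TP100K of Fzd4 and those of cluster 7 had 1.90, so its difference lay mainly in the shallow cells.

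Lipid and defence genes included several of the largest differences. Apoe (chr7:19696109-19699188, minus strand), the lipid carrier of brain lipoproteins, averaged 272 TP100K in anti-PD1 and 25.6 TP100K in control TECs and was above 0 in 70 and 14 cells (log2 ratio 3.36, expected 3.25). Sepp1, the selenium carrier, averaged 539 TP100K in anti-PD1 and 79 TP100K in control TECs (2.75, expected 2.98). Of 35 redox, iron and xenobiotic genes 26 were measured, with a median of 0.45, which is -0.10 under the 75th percentile scaling and 0.18 above the median of all genes there. Of the 26, 7 were higher (5 following the shift) and 1 lower, where 10.5% and 6.47% of all genes were. Besides Sepp1, these 7 were the glutathione transferases Gstm1 (1.95), Gsta4 (1.78) and Gstp1 (1.14), the epoxide hydrolase Ephx1 (1.10), catalase (Cat, 1.07) and glutathione peroxidase (Gpx1, 1.07), and the lower one was Gstm5 (-1.17). Cholesterol genes did not go with the clusters: of 26 listed 8 were measured and 3 were higher, none of which followed the shift. They were Scd2, a fatty acid desaturase (log2 ratio 1.2, expected -1.01), Ebp, a sterol isomerase (1.27, expected -0.57), and Insig2, a brake on sterol synthesis (1.13, expected 0.40). Their levels were low, at most 6.67 TP100K in anti-PD1 TECs, and the list median of 0.52 is -0.19 under the 75th percentile scaling, or 0.09 above the median of all genes there.

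Genes of tumor vessels and of sprouting were lower as groups. Of 16 tumor endothelium genes 14 were measured, 9 were lower and none higher, all 9 followed the shift, and the median log2 ratio was -1.57, against -2.49 expected and -1.92 against control cells of cluster 7. Of 20 tip-cell genes outside the VEGF family 16 were measured, 8 were lower, all following the shift, and 2 were higher, with a median of -1.05 (expected -1.51), and both lists hold Apln, Angpt2, Mcam, Trp53i11 and Aplnr. The tumor endothelium list also shares Lamb1, Col4a1 and Col4a2 with the matrix list, Igfbp3 with the IGF list and Mcam with the leukocyte list. Apln, the ligand apelin that marks tip cells, was above 0 in 8 of 79 anti-PD1 (10.1%, 4.47 to 19%) and 23 of 43 control TECs (53.5%, 37.7 to 68.8%), with a highest cell of 186 and 225 TP100K (log2 ratio -2.72). Angpt2, the ligand that destabilises vessels through Tie2, was above 0 in 10 and 21 cells (-2.31), and Fscn1, an actin bundler of filopodia, in 20 and 31 (-1.72). The 2 higher genes were Tek, the Tie2 receptor itself (1.32), and Unc5b, a guidance receptor (1.28). The tip-cell median was -1.43 against control cells of cluster 7 (all genes 0.12) and -0.15 against those of cluster 12 (all genes 0.44). Cluster 3 cells of the anti-PD1 plate kept more of the tumor vessel program than those of the losartan plate, with a median log2 ratio of 0.99 over the 14 tumor endothelium genes (all genes 0.05). Between those plates 10.9% of all genes were higher and 5.86% lower in anti-PD1 cells of cluster 3, and with only cells of 2000 to 6000 genes (57 and 20 cells) the 14 genes had a median of 1.15, with 8 higher and 1 lower. Depth still differed in that subset, with a median of 3248 genes in anti-PD1 and 2255.5 in losartan cells, and its part in the result was not tested. No share or median over all genes was computed for the subset.

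Several matrix genes and the IGF system were lower. Of 31 basement membrane and matrix genes 18 were measured and 6 were lower, all following the shift: the laminin chains Lamb1 (log2 ratio -2.83) and Lama4 (-1.51), the collagen IV chains Col4a1 (-1.82) and Col4a2 (-1.46), nidogen (Nid1, -1.54) and perlecan (Hspg2, -1.04). Lamb1 (chr12:31265234-31329644, plus strand) was above 0 in 11 of 79 anti-PD1 (13.9%, 7.16 to 23.5%) and 32 of 43 control TECs (74.4%, 58.8 to 86.5%), with medians of 0 and 7.67 TP100K. Spock2 was the 1 higher member, and the list median was -0.45 with -1.40 expected. It was -0.76 against control cells of cluster 7 and -0.02 against those of cluster 12 (all genes 0.12 and 0.44). Summed per cell, the matrix list averaged 932 TP100K in anti-PD1 and 844 TP100K in control TECs, with medians of 740 and 799, so its total was not clearly lower. The measured gene with the lowest ratio was Igfbp3 (chr11:7206086-7213923, minus strand), a secreted binding protein of insulin-like growth factors. It was 0, 0 and 144 TP100K in the lowest, median and highest anti-PD1 TEC, against 0, 76.3 and 834 in control TECs. Igfbp3 was above 0 in 12 of 79 (15.2%, 8.10 to 25%) and 39 of 43 cells (90.7%, 77.9 to 97.4%), and its log2 ratio of -4.75 went beyond the -2.50 expected. Igfbp7, a related matrix protein of tumor vessels, averaged 55.8 TP100K in anti-PD1 and 381 TP100K in control TECs (log2 ratio -2.75, expected -2.13). Of 15 listed IGF genes 6 were measured, 3 were lower and none higher, the third being the protease Htra3 (-1.03).

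Further genes on the lower side had less familiar roles. Fam167b (chr4:129576815-129578549, minus strand) was above 0 in 2 of 79 anti-PD1 (2.53%, 0.31 to 8.85%) and 31 of 43 control TECs (72.1%, 56.3 to 84.7%), with a log2 ratio of -4.67 and -5.01 expected. Scgb3a1, a small secreted protein, averaged 15.9 TP100K in anti-PD1 and 206 TP100K in control TECs (-3.62), and Rgcc, a regulator of the cell cycle and of complement responses, 28.1 and 210 TP100K (-2.86). Ppap2b, a lipid phosphatase, had a log2 ratio of -3.56, which was -1.36 against control cells of cluster 7 alone, since its high values were in cluster 12. Ms4a6d (-3.52), the DNA sensor Ifi204 (-3.20) and the protease Ctsw (-3.09) were above 0 in 3, 2 and 4 anti-PD1 TECs, against 21, 18 and 18 control TECs, and all had their high values in control cells of cluster 7. The receptor-like Dcbld1 (-2.98), the transcription factor Mafg (-2.87) and the noncoding RNA Airn (-2.77) followed the shift as well. Of 81 ribosomal protein genes 80 were measured and only 4 were past 2-fold lower and none higher, no larger a share than the 6.47% of all genes, while 60 had a negative ratio. Their median was -0.31 with -0.90 expected, and -1.02 under the 75th percentile scaling, or -0.74 relative to all genes there. In control cells of cluster 7 as the comparison, 17 of them were lower (median -0.59), where 6.19% of all genes were lower and 12.2% higher. In the malignant cells of the same plates (8 anti-PD1, 33 control) the ribosomal median was -1.33. Those cells also differed in markers and depth. The astrocyte list averaged 728 TP100K in anti-PD1 and 37.1 TP100K in control malignant cells, and the malignant glioma list 1122 and 354. Median genes detected were 5304.5 and 7188. These differences limit the comparison, and their part in the ribosomal median was not tested.

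**Figure D3:**
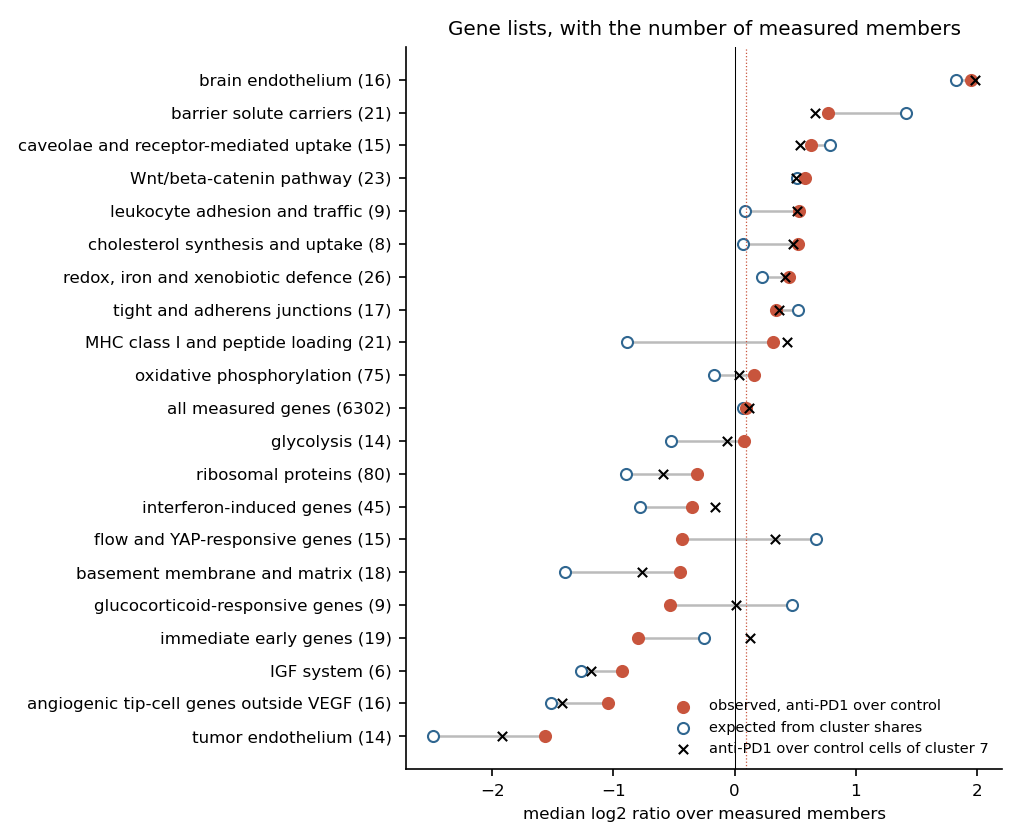
Median log2 ratio over the measured members of each gene list (number in brackets), as observed for anti-PD1 over control TECs (filled), its value expected from cluster shares (open) and against control cells of cluster 7 only (crosses), with a dotted line at the median of all genes. MHC class I lies to the right of its open circle, and the crosses of the immediate early, flow and glucocorticoid lists lie to the right of their filled circles.

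MHC class I presentation did not go with the cluster shift. All 21 listed genes were measured, 1 was higher (H2-T24, log2 ratio 1.39) and none lower, and the median was 0.32, which is -0.15 under the 75th percentile scaling and 0.13 above the median of all genes there. The cluster shift gave a median of -0.88. H2-K1, a classical class I heavy chain, averaged 386 TP100K in anti-PD1 and 310 TP100K in control TECs and was above 0 in every cell of both (log2 ratio 0.32, expected -1.03). B2m, the light chain shared by all class I molecules, averaged 1366 TP100K in anti-PD1 and 1580 TP100K in control TECs (-0.21, expected -1.23), and Psmb8, an immunoproteasome subunit, 73 and 54.6 TP100K (0.41, expected -1.49). H2-Q7, a nonclassical class I gene, averaged 61.4 TP100K in anti-PD1 and 58.4 TP100K in control TECs, where -3.09 was expected, but reads of the H2-Q genes can be split between near-identical copies. The expected values were low because cluster 3 of the losartan plate was: it had 167 TP100K of H2-K1, 590 of B2m and 8.63 of H2-Q7, against 361, 1474 and 96.6 in its clusters 7 and 12. Within cluster 3, 10 of the 21 genes were higher in anti-PD1 than in losartan cells and none lower, where 10.9% and 5.86% of all genes were. The median log2 ratio of the list there was 0.83, and 0.78 with cells of 2000 to 6000 genes. Per cell, the mean ln(TP100K + 1) of the list had a median of 2.65 in anti-PD1 cells of cluster 3, against 1.66 in losartan cells of cluster 3, 2.67 in the 3 control cells of cluster 3 and 2.51 in control cells of cluster 7. The 5 cluster 3 cells of the losartan+anti-PD1 plate had a median of 3.25, so losartan cells of cluster 3 were the low set.

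Interferon-induced genes were lower than in control TECs and above the level the clusters gave. Of 50 listed genes 45 were measured, 9 were lower (7 following the shift) and 2 higher, with a median of -0.35 against -0.78 expected and -0.16 against control cells of cluster 7. The lower ones included the GTPases Tgtp1 (log2 ratio -1.86) and Irgm1 (-1.45), the nucleic acid sensor Zbp1 (-1.25), the transcription factor Irf1 (-1.2), the exonuclease Isg20 (-1.81) and the membrane protein Ifitm3 (-1.01). Tgtp1 reads can be split with its copy Tgtp2. Ifitm3 averaged 509 TP100K in anti-PD1 and 1026 TP100K in control TECs and was above 0 in 78 and 43 cells. The 2 higher genes were Ifi27l1 (1.72) and the GTPase Gbp9 (1.02). Irgm1 (chr11:48861968-48871683, minus strand) was 0, 0 and 169 TP100K in the lowest, median and highest anti-PD1 TEC, against 0, 29.5 and 285 in control TECs. Its mean was 57.4 TP100K in control cells of cluster 7 and 0.55 in those of cluster 12, so the control plate itself held both ends. Within cluster 3, 16 of the 45 genes were higher in anti-PD1 than in losartan cells and none lower (median 0.68). There 10.9% of all genes were higher and 5.86% lower. Among cells of 2000 to 6000 genes the median was 0.51 with 12 higher, and the share of all genes was not computed. The score per cell had a median of 1.46 in anti-PD1 and 0.77 in losartan cells of cluster 3, and of 2.10 in control cells of cluster 7, with overlapping ranges. In cells labelled malignant on the same plates the interferon median was -1.50, from 8 anti-PD1 and 33 control cells. The marker differences between those cells, given with the ribosomal genes, limit this value as well. Of 12 MHC class II genes only 3 were measured, and Cd74 (17.3 TP100K in anti-PD1, 40.5 in control TECs) and H2-Ab1 (14.5 and 38.5) were lower, with log2 ratios of -1.18 and -1.35 where -4.36 and -3.35 were expected. H2-Ab1 rested on few cells (14 anti-PD1 and 15 control), and its ratio was 0.53 among cells of 2000 to 6000 genes.

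Many interferon-induced genes carry a common promoter element, so the windows before 2 of them and before B2m of the MHC class I list are shown. They are the 250 bases before the RefSeq gene start (GRCm38.p6), 5' to 3' on the gene's strand, for Irgm1 (chr11:48871421-48871670, minus strand), which was lower, for its relative Igtp (chr11:58199306-58199555, plus strand; 15.6 TP100K in anti-PD1, 31.8 in control TECs), and for B2m (chr2:122147437-122147686, plus strand), which was not past 2-fold. Capitals mark matches to GAAANNGAAA, the core of the interferon-stimulated response element (ISRE), searched on both strands, where a match is a description and not a site.
Irgm1: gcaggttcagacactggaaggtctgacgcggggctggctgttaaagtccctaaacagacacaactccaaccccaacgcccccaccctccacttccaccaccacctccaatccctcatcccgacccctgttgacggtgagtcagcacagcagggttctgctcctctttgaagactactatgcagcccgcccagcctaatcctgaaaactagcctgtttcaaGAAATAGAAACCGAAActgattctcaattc
Igtp: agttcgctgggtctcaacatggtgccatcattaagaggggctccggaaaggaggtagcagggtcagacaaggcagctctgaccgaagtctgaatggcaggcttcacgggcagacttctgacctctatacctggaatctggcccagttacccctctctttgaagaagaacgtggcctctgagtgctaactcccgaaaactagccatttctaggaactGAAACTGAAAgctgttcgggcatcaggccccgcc
B2m: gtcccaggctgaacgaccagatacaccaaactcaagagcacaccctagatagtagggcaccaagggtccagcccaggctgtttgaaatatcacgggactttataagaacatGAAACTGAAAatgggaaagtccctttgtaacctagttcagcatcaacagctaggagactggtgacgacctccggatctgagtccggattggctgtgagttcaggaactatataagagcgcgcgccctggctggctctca

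The 2 matches of Irgm1 overlap within the last 30 bases before the start, Igtp has 1 match close to the start, and that of B2m lies further upstream. In windows of 300 bases (250 before and 50 after the start), a match was present for 21 of 34 interferon-induced genes with a window (61.8%) and 4 of 17 MHC class I genes (23.5%), against 202 of 4750 measured genes (4.25%). The 21 interferon-induced genes with a match had a median log2 ratio of -0.63 with 5 lower, and the 13 without a match -0.25 with 2 lower, where 6.47% of all genes were lower. Their expected medians were -0.71 and -0.78. Within cluster 3, anti-PD1 over losartan cells, the medians were 0.64 with and 0.83 without a match. Whether a match goes with the ratio was not tested.

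**Figure D4:**
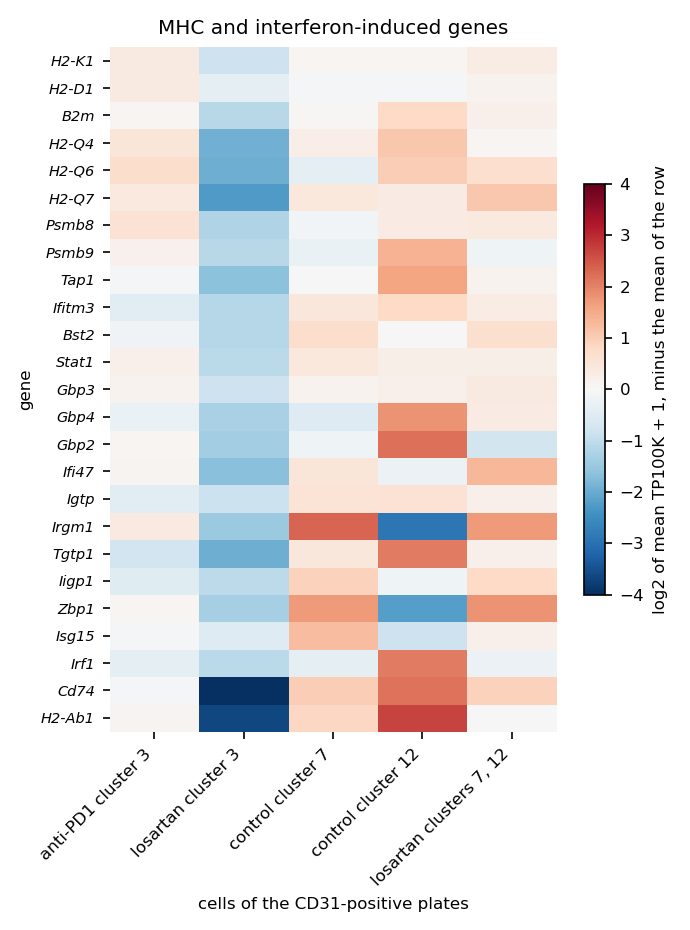
Heat map of 25 MHC and interferon-induced genes (rows) over 5 sets of TECs (columns). Colour gives the log2 of mean TP100K + 1 minus the mean of the row. The losartan cluster 3 column is the lowest for H2-K1, B2m, H2-Q7, Tap1 and Cd74, while the anti-PD1 cluster 3 column is near the control cluster 7 column for the class I genes.

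Leukocyte traffic genes moved in both directions. Of 18 listed 9 were measured, 3 were higher and 2 lower, with a median of 0.53 (expected 0.09), which is -0.08 under the 75th percentile scaling and 0.20 above the median of all genes there. Vcam1, which holds integrin-bearing leukocytes, averaged 14.2 TP100K in anti-PD1 and 5.72 TP100K in control TECs and was above 0 in 26 and 9 cells (log2 ratio 1.17, expected 0.09). Icam1, the ligand of LFA-1, averaged 6.79 and 18.5 TP100K and was above 0 in 17 anti-PD1 and 19 control TECs (-1.32, expected -2.48). The chemokines Cxcl12 and Cx3cl1 had log2 ratios of 2.31 and 1.85 and followed the shift, and the other lower gene was the adhesion molecule Mcam (-1.87). The chemokine gene Ccl19 (chr4:42754525-42756577, minus strand), a ligand of CCR7 that draws T cells and dendritic cells, lay further from its expected ratio than any other measured gene. It was above 0 in 27 of 79 anti-PD1 (34.2%, 23.9 to 45.7%) and 11 of 43 control TECs (25.6%, 13.5 to 41.2%), with means of 97.0 and 9.28 TP100K and highest cells of 1044 and 189 TP100K. Its log2 ratio was 3.25 where -4.36 was expected, since the losartan plate had 0.79 TP100K in cluster 3 and 52.8 in clusters 7 and 12. The intervals of the 2 shares overlapped, and the difference lay in the level of the cells that had it. Ccl19 has near-identical copies in the mouse genome, between which reads can be split.

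Immediate early, flow and glucocorticoid genes had list medians that were lower against the shallow control cells of cluster 12 than against those of cluster 7. Of 26 immediate early genes, which cells switch on within minutes of a stimulus or of dissociation, 19 were measured and 6 were lower, with a median of -0.80, but the median was 0.13 against control cells of cluster 7 and -1.76 against those of cluster 12. Fos averaged 43.6 TP100K in anti-PD1 TECs, against 41.1 in control cells of cluster 7 and 187 in those of cluster 12, and Junb 65.2 against 59.5 and 244. Control cells of cluster 12 exceeded those of cluster 7 by a median of 1.52 over the list, and losartan cells of cluster 12 exceeded losartan cells of cluster 7 by 1.84. Of 4 members at least 2-fold lower against cluster 7, Socs3, a feedback inhibitor of cytokine signaling, Nr4a1, a nuclear receptor, and Dusp6, a phosphatase of ERK, were also at least 2-fold lower against cluster 12, while Fosl2, an AP-1 subunit, was not (log2 ratios -1.37 and 1.06). Socs3 (chr11:117966079-117970047, minus strand) averaged 3.78 TP100K in anti-PD1 TECs, against 29.2 in control cells of cluster 7 and 47.6 in those of cluster 12, Nr4a1 2.92 against 14.4 and 9.32, and Dusp6 13 against 45.3 and 28.9. Socs3 was above 0 in 20 of 79 anti-PD1 (25.3%, 16.2 to 36.4%) and 31 of 43 control TECs (72.1%, 56.3 to 84.7%), with a log2 ratio of -2.82 and -2.95 expected.

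Of 18 genes that respond to flow or YAP 15 were measured, 4 were lower and 2 higher, with a median of -0.43. The median was 0.33 against control cells of cluster 7 and -1.13 against those of cluster 12. The flow-induced factor Klf2 averaged 12.1 TP100K in anti-PD1 TECs, against 4.75 in control cells of cluster 7 and 69.8 in those of cluster 12, and Klf4 8.96 against 6.92 and 71.8. The YAP target Cyr61 was low against both, with 22.3 TP100K in anti-PD1 TECs, 67.1 in control cells of cluster 7 and 230 in those of cluster 12. Edn1, the vasoconstrictor endothelin 1, averaged 18.6 TP100K in anti-PD1 and 41.5 TP100K in control TECs, a log2 ratio of -1.12 where 2.45 was expected. Of 21 glucocorticoid-responsive genes 9 were measured, 3 were lower and 1 higher, with a median of -0.53 where 0.48 was expected. The median was 0.01 against control cells of cluster 7 and -0.47 against those of cluster 12 (all genes 0.12 and 0.44). With the control cells of cluster 12 left out and the measured genes chosen anew, the flow and glucocorticoid medians stayed within 1.5-fold of those reported. Sgk1 (chr10:21882184-21999903, plus strand), a kinase that glucocorticoids and stress induce, averaged 15.7 TP100K in anti-PD1 TECs, against 15.5 in control cells of cluster 7 and 130 in those of cluster 12. Tsc22d3 (GILZ), a standard glucocorticoid target, averaged 26.9 TP100K in anti-PD1 and 34.4 TP100K in control TECs, and 91.6 in losartan cells of cluster 3. Angptl4, a lipase inhibitor, differed the other way, with 3.18 TP100K in anti-PD1 TECs, 20.6 in control cells of cluster 7 and 0 in those of cluster 12. Within cluster 3, 5 of the 9 genes were lower in anti-PD1 than in losartan cells and none higher (median -1.13). Of all genes, 5.86% were lower and 10.9% higher there.

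**Figure D5:**
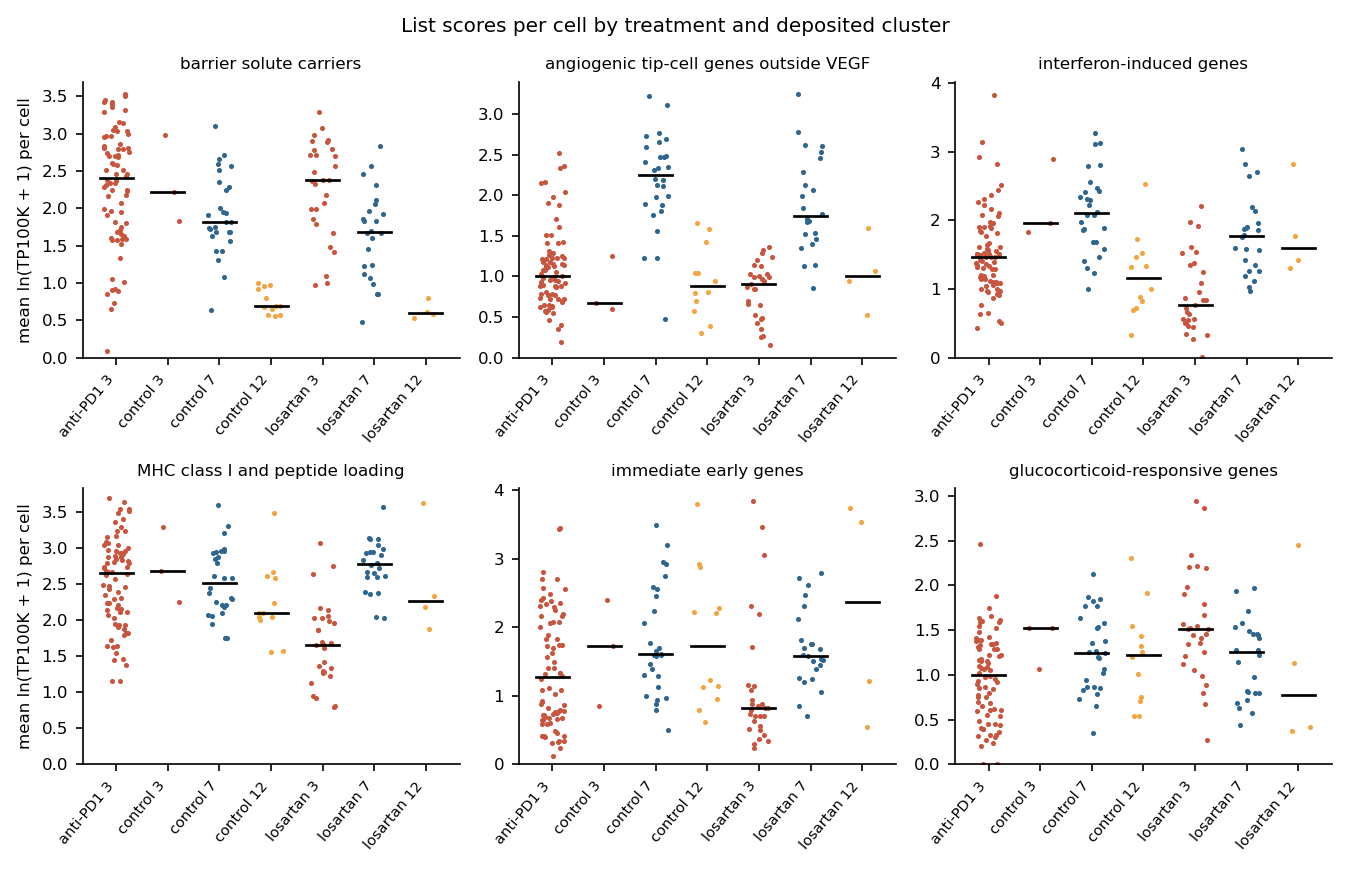
Mean ln(TP100K + 1) over the measured genes of 6 lists in each TEC (points), by treatment and deposited cluster, with a line at the median; the 1 anti-PD1 cell of cluster 7 is not drawn. Carriers are lowest in cluster 12 (control median 0.70), tip-cell genes highest in cluster 7 (control median 2.25), and MHC class I lowest in losartan cluster 3 (1.66).

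Within cluster 3 the plates could be set side by side for 78 anti-PD1 and only 3 control TECs. There the brain endothelium median was 0.49, the carrier median 0.15 and the tumor endothelium median 0.69, so the differences of these lists over all cells were not present within the cluster at that size, and the tip-cell median turned to 1.76. Igfbp3 kept a low ratio in that comparison, at -3.75, while Fam167b and Rgcc had 0.43 and 2.73. With 3 control cells, a gene's mean can rest on 1 of them.

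Further single genes departed from the clusters. Erdr1, a multicopy gene near the end of the sex chromosomes, was above 0 in 47 of 79 anti-PD1 (59.5%, 47.9 to 70.4%) and 1 of 43 control TECs (2.33%, 0.06 to 12.3%), with a log2 ratio of 2.65 where -0.95 was expected. The Y-linked Ddx3y was above 0 in 26 anti-PD1 and 20 control TECs and Xist, which female cells express, in 4 and 3 at trace levels (means of 0.0035 and 0.0028 TP100K), and their part in the Erdr1 result was not tested. Pomc, the precursor of several peptide hormones, was above 0 in 29 of 79 anti-PD1 and 2 of 43 control TECs, with a log2 ratio of 3.24 and 1.0 expected. Cd38, an enzyme that consumes NAD, had a ratio near 0 (10.2 TP100K in anti-PD1, 9.38 in control TECs) where -4.17 was expected, because losartan cells of cluster 3 had 0.01 TP100K. Ggact, an enzyme that breaks down crosslink remnants (log2 ratio 2.50, expected -1.46), Trnau1ap, a factor of selenocysteine use (1.84, expected -2.14), and Lsm5, a splicing protein (1.56, expected -3.04), were higher against the shift, and Prcp (0.37), Snx12 (0.72), H2-Q8 (0.83) and H2-Q5 (-0.07) were not lower where it gave at least 4-fold lower. On the other side, Lmcd1, a transcription cofactor, and Zbtb46, a transcription factor of classical dendritic cells and endothelium, had log2 ratios of -2.43 and -1.54 where 1.6 and 2.03 were expected. Without the control cells of cluster 12 these became 1.45 and 1.27, a change of sign. Alpl, a phosphatase of arterial and capillary endothelium, and Gas6, a ligand of TAM receptors, had ratios of 0.61 and 0.30 where 3.49 and 3.25 were expected, with control levels of 31.5 and 51.7 TP100K in cluster 12, against 0 and 0.79 in cluster 7. Rnf130, a ubiquitin ligase (-2.30, expected 1.92), Nsmaf (-1.38, expected 1.82), Deaf1 (-1.24, expected 1.61), Zfp386 (-0.86, expected 2.72) and Crip1 (-0.24, expected 2.62) also stood below the shift, each with a higher control level in cluster 12 than in cluster 7.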

How the data were processed

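For both CD31-positive plates TPM were used as deposited by the authors, who ran RSEM after aligning reads to the mouse transcriptome (mm10) with Bowtie, and which sum to the same total in each cell, so they hold no depth. The submitters' processing notes give RSEM version 1.2.8. The values of the CD45-negative plate, used for 5 anti-PD1 TECs in 1 alternative, are expected counts, as deposited by the authors from RSEM without division by length. Cells in the authors' tables had passed their limits of 1000 to 8000 detected genes and of 20 housekeeping genes. Cell type and cluster came from the authors' annotation.

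Each cell was scaled to 100000 (TP100K). Ratios are log2 of group means after adding 1 TP100K, among genes above 0 in at least 20% of cells. The expected ratio used losartan-plate means of cluster 3 (29 cells) and of clusters 7 and 12 (28 cells), weighted by each plate's cluster shares. Metallothionein, Mmp and VEGF genes and the genes of the edema signature (18 measured) were left out of lists and named genes. Named genes were the 15 highest and 15 lowest ratios, the 10 highest and 10 lowest differences from expected, and, per list, the 4 measured members with the largest ratios or any member of lists of up to 20 genes. Other genes named were chosen after their values were seen, and some genes that the rule names are not reported here. Members and the 41 pathway lists were chosen with earlier results of these data known. No 2 cells were identical, and the steps were tested on simulated data. Alternatives covered pseudocount, scaling, filter, genes detected, cells included and the cluster reference. The comparisons with control clusters 7 and 12 separately, and of cluster 3 in cells of 2000 to 6000 genes, were added after seeing the data. Promoter sequences are from RefSeq (GRCm38.p6), and gene positions from GENCODE vM21 (GRCm38). Tables were handled with pandas 2.3.3 and NumPy 2.4.6 under Python 3.11.15, intervals came from SciPy 1.17.1, and plots from matplotlib 3.10.9.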

Additional observations from a re-analysis of the deposited data

How the results depend on the processing

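The counts of genes at least 2-fold higher and lower (660 and 408) were 1045 and 690 with a pseudocount of 0.1 TP100K, 85 and 60 with 10 TP100K, 244 and 238 with the difference of mean ln(TP100K + 1), 1240 and 779 with no filter, and 175 and 786 under the 75th percentile scaling. The share of lower genes that follow the cluster shift moved to 68.1% under that scaling and to 74.8% with mean ln(TP100K + 1). Of the list medians recomputed, 221 of 255 stayed within 1.5-fold, as did 249 of 255 medians of observed minus expected ratios. A change of sign was counted only where the reported median was at least 0.5 in size. Under the 75th percentile scaling, MHC class I (0.32 to -0.15) and redox genes (0.45 to -0.10) changed sign and are still among the 221. The cause of the other changes was not tested.

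Under the 75th percentile scaling the medians were 1.26 for brain endothelium, 0.0381 for carriers, -0.0253 for the Wnt pathway, -1.14 for matrix, -1.02 for ribosomal proteins, -0.0754 for leukocyte traffic and -0.19 for cholesterol genes, and observed minus expected was 0.44 for caveolae, 0.33 for the IGF system, 0.0193 for immediate early genes and 0.72 for redox genes. The brain endothelium median was 2.92 with mean ln(TP100K + 1), where observed minus expected for immediate early genes was 0.19. That value was 0.10 with separate means for clusters 7 and 12. The IGF median was -1.60 with a pseudocount of 0.1 TP100K. The caveolar median was -0.11 with the filter at 10% and -0.0328 without a filter. Without the control cells of cluster 12, an alternative chosen after seeing the data, the immediate early median was 0.0351, and the ratios of Lmcd1 and Zbtb46 were 1.45 and 1.27. The ratio of H2-Ab1 was 0.53 with cells of 2000 to 6000 genes.

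Within cluster 3 (78 anti-PD1 and 3 control cells) the medians were 0.49 for brain endothelium, 0.69 for tumor endothelium, 0.15 for carriers, 0.28 for matrix, 1.76 for tip-cell genes, -0.19 for immediate early, 0.56 for glucocorticoid-responsive, 0.29 for ribosomal, -0.00739 for leukocyte and 1.85 for cholesterol genes. Single genes whose log2 ratio changed sign there were Angpt2 2.25, Angptl4 0.56, Apln 2.49, Aplnr 2.64, Axin2 -0.15, Cat -0.16, Cav1 -0.0834, Col4a2 0.10, Ctsw 1.07, Cx3cl1 -0.0352, Cyr61 0.37, Dcbld1 0.072, Dusp6 1.34, Fam167b 0.43, Fzd4 0.91, Gstm1 -0.0633, H2-Ab1 3.84, Hspg2 0.51, Htra3 0.71, Ifi204 0.18, Lama4 1.99, Lsr -0.59, Mafg 0.98, Mcam 0.33, Ms4a6d 0.93, Nid1 0.32, Nkd1 -0.47, Ocln -0.10, Reck -0.65, Rgcc 2.73, Sepp1 -0.38, Slc16a1 -0.94, Slco1a4 -0.0146, Sox17 -0.57, Stab1 0.68, Tgtp2 0.39, Trp53i11 0.94, Vcam1 -0.0845, Zbtb46 1.76. Within clusters 7 and 12 (1 anti-PD1 and 40 control cells) the medians were -1.20 for brain endothelium, 0.0465 for tumor endothelium, -0.94 for carriers, -0.94 for the Wnt pathway, -0.22 for tip-cell, -1.92 for IGF, -1.25 for interferon-induced, -2.88 for immediate early, -2.02 for flow, -1.81 for glucocorticoid-responsive, -0.44 for redox and -1.14 for cholesterol genes, and rest on 1 cell.

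No paired analysis was possible because each treatment is 1 plate and the labels give no replicate numbers. The cells left out for 3 or more markers of another cell type were also an alternative chosen after seeing the data (669 higher, 438 lower). TPM carry no read depth, only the genes detected per cell could be restricted to 1 range, and a gene at 0 in a cell can be missed rather than absent. The 3 control cells of cluster 3 and the 12 shallow ones of cluster 12 limit every comparison within clusters.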

Other observations

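Gene groups of vessel identity and metabolism, not described so far, were compared in the same way. Each count below stands beside 10.5% of all measured genes at least 2-fold higher and 6.47% at least 2-fold lower. The median log2 ratio of all genes was 0.09. Of 12 venous genes 10 were measured, 2 were at least 2-fold higher and 2 at least 2-fold lower, and the median log2 ratio was 0.15 where the cluster shift gave -0.94. Darc, a chemokine receptor of venules, averaged 37.2 TP100K in anti-PD1 and 58.4 TP100K in control TECs (log2 ratio -0.64, expected -3.01). Of 16 arterial genes 6 were measured, 3 were higher and 1 lower, and the 3 higher ones all followed the shift.

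Of 76 oxidative phosphorylation genes 75 were measured, 4 were higher and 2 lower, smaller shares than the 10.5% and 6.47% of all genes. Sdha, the catalytic subunit of succinate dehydrogenase, averaged 21.3 TP100K in anti-PD1 TECs, against 4.50 TP100K in control TECs (log2 ratio 2.02, expected 1.09). Of 20 glycolysis genes 14 were measured, 2 were higher and 1 lower, the lower one being Pfkfb3, an activator of glycolytic flux (log2 ratio -1.62, expected -1.14). Among 11 measured hypoxia genes 3 were higher and 1 lower, with Ndrg1 at 35.6 TP100K in anti-PD1 and 6.02 TP100K in control TECs. Of 12 measured Notch pathway genes 1 was higher and 1 lower, near the shares of all genes. The lower one was the Notch target Nrarp (-1.61, expected -0.38). Bhlhe40, a repressor of the circadian clock, had a log2 ratio of -1.49 where 0.26 was expected. Each value compares 1 plate with 1 plate and has no replicate check.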
